A study of Mus musculus with 18 samples.

Results

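The 8 genes described here, Il17rb, Chdh, Casp4, Cass4, Cobll1, Myadm, Niban1 and Ttc39c, were selected on their own array values, for being lower in regulatory T (Treg) cells with the Foxp3 mutations A384T, I363V and R397W. They are 8 of 18193 genes measured by at least 1 probe set that the chip annotation assigned to exactly 1 gene. A gene was represented by its probe set with the largest variance over all arrays. The wording of the choice does not say which cells the mutants were compared with, so no difference that involves a mutant group or the matching wild-type hCD2 group is tested here for these genes. Those differences are given as descriptions.

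B6;129 mice gave spleen and lymph nodes, and RNA of CD4+ cells sorted from them without culture was hybridised to 18 GeneChip arrays. All mice carried a Foxp3 allele marked with an hCD2 reporter and a wild-type Foxp3 allele marked with GFP (FoxP3WT:hCD2/WT:GFP or the A384T, I363V or R397W counterpart), so mutant Treg cells developed beside wild-type Treg cells. The mutant groups were the hCD2+GFP- cells of A384T:hCD2/WT:GFP, I363V:hCD2/WT:GFP and R397W:hCD2/WT:GFP mice, with 3 arrays each. WT hCD2 Treg cells were the same gate in WT:hCD2/WT:GFP mice (2 arrays), and WT GFP Treg cells were the hCD2-GFP+ cells of A384T:hCD2/WT:GFP mice (3 arrays) or of WT:hCD2/WT:GFP mice (2 arrays). Conventional T cells (Tconv) were hCD2-GFP- CD4+ cells of WT:hCD2/WT:GFP mice (2 arrays). Whether the arrays of a group come from different animals is not stated, so each p measures the spread between these samples, which may be technical.

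Foxp3 is the forkhead transcription factor that specifies Treg cells, the CD4 T cells that restrain immune responses. It binds DNA through its forkhead domain and acts with partners such as RUNX and NFAT factors to raise some genes and lower others. The genes described here do not form 1 pathway. Il17rb encodes a receptor subunit for the cytokine IL-25, and Chdh encodes choline dehydrogenase, the mitochondrial enzyme that starts the oxidation of choline to betaine. Casp4, also called caspase-11, is an inflammatory protease that senses lipopolysaccharide in the cytosol. Cass4 is a scaffold of the CAS family in focal adhesion signalling, Cobll1 is related to the actin nucleator Cordon-bleu, and Myadm is a membrane protein with MARVEL domains. Niban1 is known from cellular stress responses, and Ttc39c contains tetratricopeptide repeats.

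Every value below is on the log2 scale of the deposited table, which was shifted so that the 2 Tconv arrays of each probe set average 0. A value of 1 is thus 2 times the Tconv signal, and levels cannot be compared between genes. Foxp3 itself stood at 6.38 to 7.59 in the 16 Treg arrays and at -0.07 and 0.07 in the Tconv arrays, and Il2ra and Ikzf2, which mark Treg cells, separated the same arrays. The arrays measure transcript and do not read the amino acid changes. The T cell identity list (6 measured genes) had array medians between -0.11 and 0.43 in the mutant groups and between 0.06 and 0.50 in the wild-type Treg groups. In bulk samples, fewer cells of a type and less RNA per cell cannot be told apart.

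Promoter sequences show where the members stand in the genome, and 2 of them share a promoter region. Il17rb and Chdh are neighbours on chromosome 14 and are transcribed away from each other. RefSeq (GRCm38.p6) places Il17rb at 29996168 to 30008896 on the minus strand and Chdh at 30008901 to 30040468 on the plus strand, with 4 bases between them. The start sites of the windows used lie 104 bases apart, and the windows, which run from 250 bases before to 50 bases after a start site, overlap by 203 bases. The lines below give both windows 5′ to 3′ on their own strand, with the match to the AP-1 motif (TGANTCA, which reads the same on both strands) in capitals. It is a single stretch of the genome, chr14:30008994-30009000, that both windows contain.
Chdh, chr14:30008750-30009049, plus strand: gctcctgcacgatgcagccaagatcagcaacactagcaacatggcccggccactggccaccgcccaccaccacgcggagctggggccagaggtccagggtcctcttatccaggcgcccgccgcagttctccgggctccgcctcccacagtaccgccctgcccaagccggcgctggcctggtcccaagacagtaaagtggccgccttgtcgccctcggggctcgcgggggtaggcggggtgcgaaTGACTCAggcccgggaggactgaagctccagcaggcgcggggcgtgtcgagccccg
Il17rb, chr14:30008847-30009146, minus strand: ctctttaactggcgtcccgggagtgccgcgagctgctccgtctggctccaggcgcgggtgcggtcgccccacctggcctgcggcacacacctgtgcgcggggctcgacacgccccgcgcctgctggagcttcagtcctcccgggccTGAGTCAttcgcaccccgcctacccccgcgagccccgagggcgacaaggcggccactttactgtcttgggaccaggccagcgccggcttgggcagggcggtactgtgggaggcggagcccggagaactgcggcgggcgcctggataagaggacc

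The other 3 windows shown are those of members with a match to the motif of forkhead, RUNX or NFAT factors in the window at the gene's first listed start. Capitals mark the forkhead match (TGTTTAC or its reverse complement GTAAACA) in Casp4, the RUNX match (TGTGGT or ACCACA) in Cobll1 and Cass4, and the NFAT match (TGGAAA or TTTCCA) in Cass4, which is the upstream one of the pair in capitals.
Casp4, chr9:5308599-5308898, plus strand: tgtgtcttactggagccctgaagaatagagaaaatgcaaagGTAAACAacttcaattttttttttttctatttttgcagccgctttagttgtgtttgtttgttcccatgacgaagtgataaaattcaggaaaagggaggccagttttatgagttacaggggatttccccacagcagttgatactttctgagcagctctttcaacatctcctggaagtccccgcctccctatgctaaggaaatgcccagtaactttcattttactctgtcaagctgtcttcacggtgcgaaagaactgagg
Cass4, chr2:172393394-172393693, plus strand: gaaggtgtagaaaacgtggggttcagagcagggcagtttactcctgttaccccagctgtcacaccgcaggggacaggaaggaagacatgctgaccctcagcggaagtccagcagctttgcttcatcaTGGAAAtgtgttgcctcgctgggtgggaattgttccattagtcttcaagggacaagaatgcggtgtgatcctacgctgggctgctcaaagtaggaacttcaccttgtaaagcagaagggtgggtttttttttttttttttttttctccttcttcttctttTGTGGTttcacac
Cobll1, chr2:65238742-65239041, minus strand: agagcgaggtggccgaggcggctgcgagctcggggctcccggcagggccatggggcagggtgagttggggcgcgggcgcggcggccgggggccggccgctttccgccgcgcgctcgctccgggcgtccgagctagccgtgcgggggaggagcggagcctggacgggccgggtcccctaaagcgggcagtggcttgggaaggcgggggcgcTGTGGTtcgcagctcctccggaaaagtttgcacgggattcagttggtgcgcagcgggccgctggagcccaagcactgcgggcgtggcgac

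Windows of 7 members were used, 13 in all, and that of Ttc39c was not analysed here. The forkhead match lay 209 to 203 bases before the Casp4 start, and 1 of the 7 members had one in any of its windows, where 4.05% of all 27025 genes did. The RUNX motif, present for 18.9% of all genes, was found in Cobll1, 40 to 35 bases before the start site of its window. That window lies within the RefSeq span of Cobll1 (chr2:65088339-65239398). In Cass4 the RUNX motif was found 38 to 43 bases after the start. The AP-1 motif was present for 8.97% of all genes and the NFAT motif for 23.9%, and NFAT also matched in the second window of Chdh. The windows of Myadm and Niban1 held none of the 4 motifs. A match is a string of letters and was not tested as a binding site.

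In all 9 mutant arrays each of the 8 genes lay below all 7 wild-type Treg arrays. Over all genes this held for 0.742%. The choice of genes used the mutant arrays and may have used the wild-type ones, so nothing is read from the difference. The interval between the highest mutant array and the lowest wild-type Treg array ran from 0.26 for Il17rb to 1.01 for Ttc39c. The genes differed in where the mutants stood against Tconv. The mutant arrays lay below both Tconv arrays as well for 2 genes, above both for 1, and overlapped them for 5. Over all genes, 135 had all mutant arrays below all wild-type Treg arrays. Of these, 17 (0.0934% of all genes) were below both Tconv arrays too. The shares for the positions above and overlapping Tconv were not counted.

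**Figure D1:**
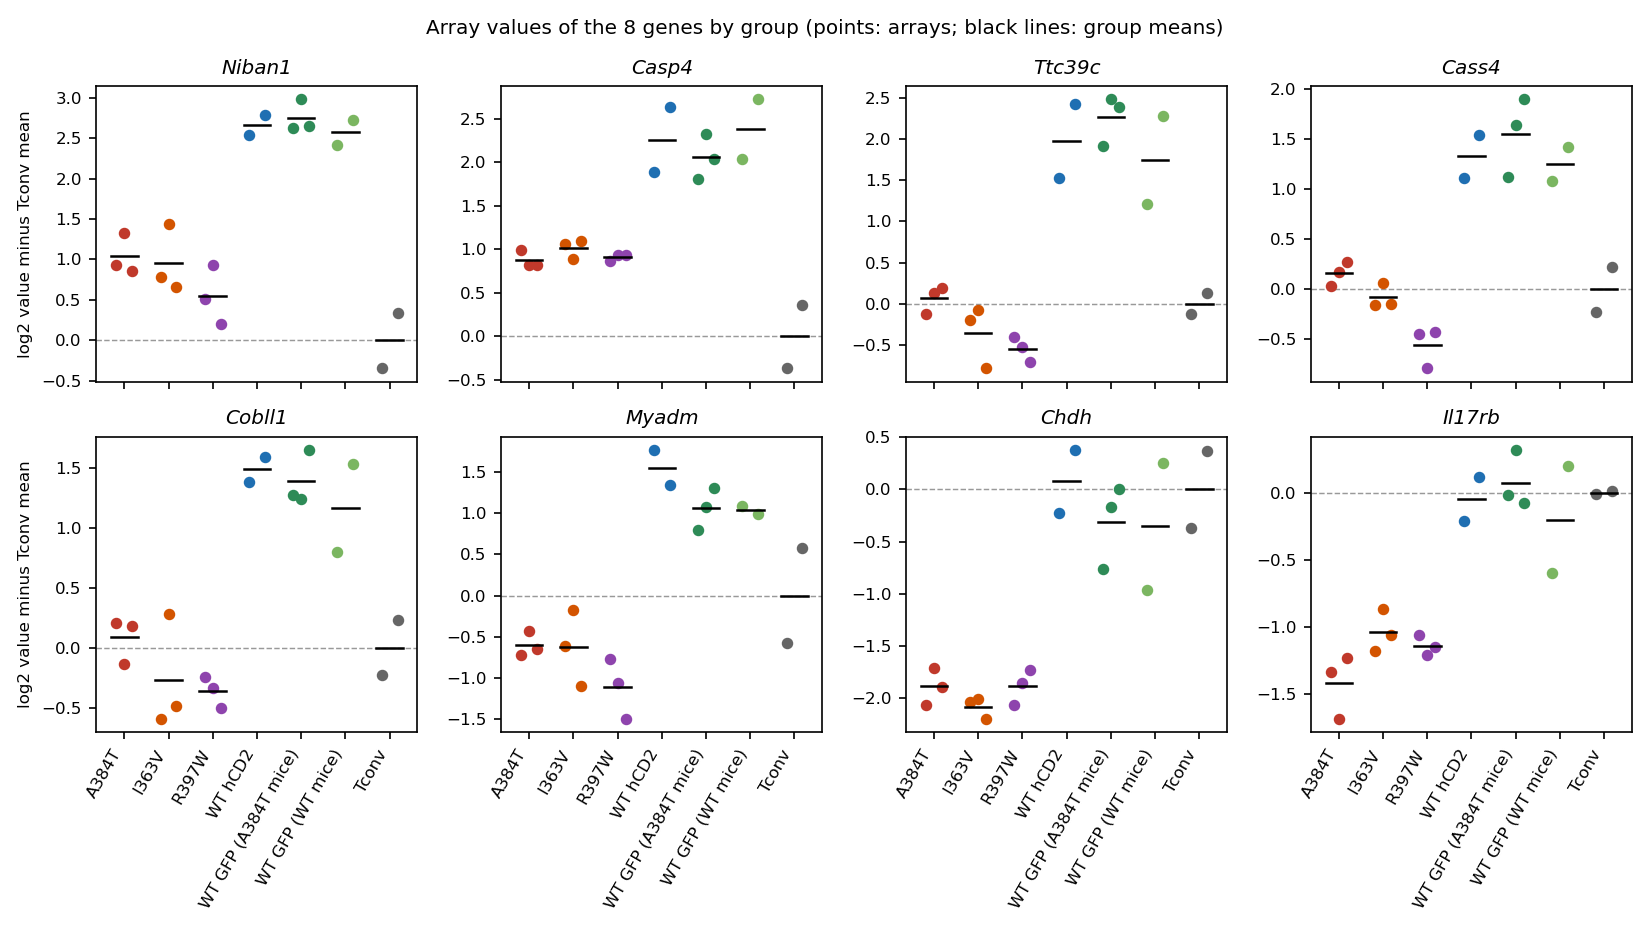
Log2 value minus the Tconv mean (y axis) for each of the 8 genes in the 7 groups (x axis). Points are arrays, black lines are group means and the dashed line marks the Tconv mean. The mutant groups at the left lie below every wild-type Treg array in each panel. The mutant arrays of Chdh and Il17rb lie below both Tconv arrays, and those of Casp4 above.

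Il17rb and Chdh, the receptor subunit and the choline enzyme of the shared locus, had overlapping values in wild-type Treg and Tconv cells and lower values in the mutants than in either. Il17rb stood at -1.33, -1.68 and -1.23 in A384T cells, at -1.18, -0.86 and -1.06 in I363V cells and at -1.06, -1.21 and -1.15 in R397W cells. It stood at -0.21 and 0.12 in WT hCD2 cells, at -0.02, 0.32 and -0.08 in WT GFP cells of A384T mice, at -0.60 and 0.20 in WT GFP cells of WT mice and at -0.01 and 0.01 in Tconv cells. All mutant arrays were thus below all others, and the nearest wild-type array was the first WT GFP array. The difference from WT hCD2 cells was -1.37 ± 0.21 (SE of the fit) for A384T, -0.99 ± 0.21 for I363V and -1.09 ± 0.21 for R397W, or 2.58-fold, 1.98-fold and 2.13-fold lower. A384T cells were the lowest of the mutants, and their arrays overlapped neither the I363V arrays nor the R397W arrays.

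Chdh had values of -2.06, -1.71 and -1.89 in A384T cells, of -2.04, -2.01 and -2.20 in I363V cells and of -2.06, -1.86 and -1.73 in R397W cells. It had values of -0.22 and 0.38 in WT hCD2 cells, of -0.76, -0.17 and 0.00 in WT GFP cells of A384T mice, of -0.96 and 0.25 in WT GFP cells of WT mice and of -0.37 and 0.37 in Tconv cells. The mutant groups overlapped each other and kept a gap of 0.75 to the lowest wild-type Treg array. Against WT hCD2 cells Chdh was 3.90-fold lower in A384T, 4.47-fold lower in I363V and 3.90-fold lower in R397W cells, with log2 differences of -1.97, -2.16 and -1.96 (SE 0.32 each). The first A384T array and the first R397W array hold an identical deposited value for Chdh, which occurs between these arrays at 10 of 34945 probe sets.

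Chdh and Il17rb formed 2 separate clouds over the arrays. Pearson's r between them was 0.64 over the 9 arrays without a mutation and -0.55 over the 9 mutant arrays. Over all 18 arrays, which include the distance between mutants and the rest, r was 0.91. The points share groups and arrays, and these coefficients are descriptions. The genes on either outer side, Actr8 beside Il17rb and Cacna1d beside Chdh, were not called in any of the 6 comparisons made for them.

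**Figure D2:**
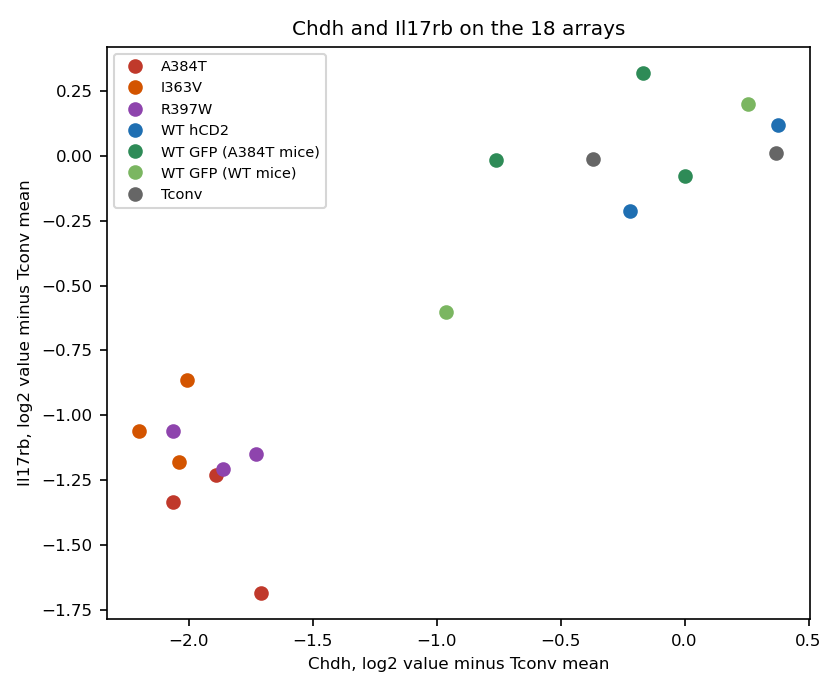
Log2 value of Chdh (x axis) against Il17rb (y axis), each relative to the Tconv mean, with 1 point for each of the 18 arrays coloured by group. The 9 mutant arrays lie at the lower left, below -1.7 for Chdh and at or below -0.86 for Il17rb, apart from the 9 others.

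Casp4, the lipopolysaccharide sensor, was the member whose mutant arrays all stayed above Tconv. Its values were 1.0, 0.82 and 0.83 in A384T cells, 1.06, 0.89 and 1.10 in I363V cells and 0.86, 0.94 and 0.93 in R397W cells. They were 1.89 and 2.64 in WT hCD2 cells, 1.81, 2.33 and 2.03 in WT GFP cells of A384T mice, 2.03 and 2.72 in WT GFP cells of WT mice and -0.36 and 0.36 in Tconv cells. The 3 mutant groups nearly coincided and lay between the wild-type Treg arrays and the Tconv arrays without touching either. Relative to WT hCD2 cells the differences were -1.38 ± 0.25 in A384T, -1.25 ± 0.25 in I363V and -1.35 ± 0.25 in R397W cells, and 2.60-fold, 2.37-fold and 2.55-fold lower as ratios. Without WT hCD2 array 3 or 4 the A384T difference was -1.75 or -1.0.

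The 3 members with roles at the membrane and in the cytoskeleton, Cass4, Cobll1 and Myadm, stood above Tconv in wild-type Treg cells and around or below it in the mutants. Cass4 was measured at 0.04, 0.17 and 0.27 in A384T cells, at -0.16, 0.07 and -0.14 in I363V cells and at -0.45, -0.79 and -0.42 in R397W cells. It was measured at 1.12 and 1.55 in WT hCD2 cells, at 1.12, 1.64 and 1.90 in WT GFP cells of A384T mice, at 1.08 and 1.43 in WT GFP cells of WT mice and at -0.23 and 0.23 in Tconv cells. The R397W arrays were the lowest and lay below both Tconv arrays and below every array of the other mutants. The differences from WT hCD2 cells were -1.17 ± 0.22 for A384T, -1.41 ± 0.22 for I363V and -1.88 ± 0.22 for R397W.

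Cobll1 came to 0.21, -0.13 and 0.18 in A384T cells, to -0.59, 0.28 and -0.49 in I363V cells and to -0.24, -0.34 and -0.50 in R397W cells. It came to 1.38 and 1.59 in WT hCD2 cells, to 1.27, 1.24 and 1.65 in WT GFP cells of A384T mice, to 0.79 and 1.53 in WT GFP cells of WT mice and to -0.23 and 0.23 in Tconv cells. The second I363V array was the highest of the mutants, and the R397W arrays were all below those of A384T. Cobll1 was 2.64-fold lower in A384T, 3.37-fold lower in I363V and 3.60-fold lower in R397W cells than in WT hCD2 cells.

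Myadm read -0.73, -0.44 and -0.65 in A384T cells, -0.61, -0.18 and -1.10 in I363V cells and -0.77, -1.06 and -1.50 in R397W cells. It read 1.77 and 1.34 in WT hCD2 cells, 0.80, 1.08 and 1.31 in WT GFP cells of A384T mice, 1.08 and 0.99 in WT GFP cells of WT mice and -0.58 and 0.58 in Tconv cells. The Tconv arrays themselves differed widely, and the R397W arrays lay below both. Myadm had the largest difference from WT hCD2 cells among the 8 genes in A384T and R397W cells, -2.16 ± 0.32 and -2.67 ± 0.32, and a difference of -2.18 ± 0.32 in I363V cells. WT hCD2 cells were also above WT GFP cells of WT mice for Myadm, by 0.52 ± 0.35 and without overlap. Since 17.4% of all genes were higher without overlap there, nothing is read from that separation. Against WT GFP cells of A384T mice, the A384T difference of Myadm was -1.67 ± 0.28.

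Niban1 and Ttc39c, the stress response gene and the repeat protein gene, stood well above Tconv in wild-type Treg cells and lower in the mutants. Niban1 gave 0.93, 1.32 and 0.85 in A384T cells, 0.78, 1.43 and 0.66 in I363V cells and 0.52, 0.93 and 0.21 in R397W cells. It gave 2.54 and 2.79 in WT hCD2 cells, 2.63, 2.98 and 2.65 in WT GFP cells of A384T mice, 2.42 and 2.73 in WT GFP cells of WT mice and -0.34 and 0.34 in Tconv cells. As for Casp4, most mutant arrays stayed above Tconv, and only R397W array 3 lay within the Tconv range. The differences from WT hCD2 cells were -1.63 ± 0.27 for A384T, -1.71 ± 0.27 for I363V and -2.11 ± 0.27 for R397W.

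Ttc39c amounted to -0.13, 0.13 and 0.20 in A384T cells, to -0.19, -0.08 and -0.78 in I363V cells and to -0.41, -0.53 and -0.70 in R397W cells. It amounted to 1.52 and 2.42 in WT hCD2 cells, to 1.92, 2.48 and 2.39 in WT GFP cells of A384T mice, to 1.21 and 2.27 in WT GFP cells of WT mice and to -0.13 and 0.13 in Tconv cells. The A384T arrays lay close to Tconv, with arrays 2 and 3 just above both Tconv arrays. The I363V arrays lay within the Tconv range or below it, and all R397W arrays lay below both Tconv arrays. On another probe set of Ttc39c, R397W array 3 (0.16) lay above both Tconv arrays (-0.12 and 0.12). On the remaining probe set all R397W arrays were again below both. The gap to the lowest wild-type Treg array was the widest of the 8 genes. Ttc39c was 3.75-fold lower in A384T, 5.0-fold lower in I363V and 5.73-fold lower in R397W cells than in WT hCD2 cells.

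The median difference over the 8 genes from WT hCD2 cells was -1.51 for A384T (range -2.16 to -1.17), -1.73 for I363V (-2.32 to -0.99) and -1.92 for R397W (-2.67 to -1.09). The medians over all 18193 genes were -0.02 in each comparison, and the mutant arrays lay below both WT hCD2 arrays for 14.9% of all genes in A384T, 13.6% in I363V and 13% in R397W cells. A384T cells could also be set against the WT GFP cells of A384T mice, and the median there was -1.54 (range -2.19 to -1.18), with 6.39% of all genes without overlap in this direction. The comparisons of the 3 mutants share the WT hCD2 arrays.

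Among the mutants, R397W cells were lower than A384T cells by a median of 0.47 for the 8 genes (median difference -0.47), and the arrays of the groups did not overlap for 5 of them. Over all genes, 10.7% were lower in R397W without overlap and 9.23% were higher. On the probe sets with the largest variance, Cass4 (-0.71 ± 0.19), Ttc39c (-0.61 ± 0.28), Myadm (-0.51 ± 0.28) and Cobll1 (-0.45 ± 0.23) were lower in R397W cells. Il17rb was higher in R397W cells (0.28 ± 0.19). Between I363V and A384T cells the median was -0.14, and only Il17rb did not overlap, with the higher value in I363V (0.38 ± 0.19; 8.03% of all genes were higher without overlap). Between R397W and I363V cells the median was -0.15, and only Cass4 did not overlap, with the lower value in R397W (-0.48 ± 0.19; 5.27% of all genes were lower without overlap). Casp4 and Chdh differed by at most 0.20 between any pair of mutants.

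The wording of the choice does not name the comparisons among wild-type cells, and the fit across all genes gives a p for them. The WT GFP arrays may still have been among the cells that the mutants were set against, and a gene chosen for being lower than them is more likely to stand high in them. The calls of the 8 genes against Tconv are therefore a description, and nothing is read from their number against the share of all genes called. WT GFP Treg cells of WT mice were called higher than Tconv cells for 5 of the 8 genes (limma, with p adjusted by Benjamini and Hochberg over all genes and called under 0.05), where 2.65% of all genes were called higher and 1.28% lower. Niban1 rose by 2.57 ± 0.29 (adjusted p = 6.41e-05) and Casp4 by 2.38 ± 0.27 (adjusted p = 6.89e-05). Ttc39c rose by 1.74 ± 0.34 (adjusted p = 0.00783), Cass4 by 1.25 ± 0.24 (adjusted p = 0.00585) and Cobll1 by 1.16 ± 0.28 (adjusted p = 0.0317). Myadm had a difference of similar size, 1.04 ± 0.35, that was not called (adjusted p = 0.144). It was called with the replicate number as a block (adjusted p = 0.00478). That fit called 2236 of all genes higher and 1111 lower, in place of 482 and 233, so the call is no added support. Chdh (-0.35 ± 0.35, adjusted p = 0.721) and Il17rb (-0.20 ± 0.23, adjusted p = 0.765) were not called, and their arrays overlapped those of Tconv. Leaving out Tconv array 1 or WT GFP array 2 left 2 of the 8 genes called, Niban1 and Casp4, and a fit of only the compared arrays left Niban1 alone.

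**Figure D3:**
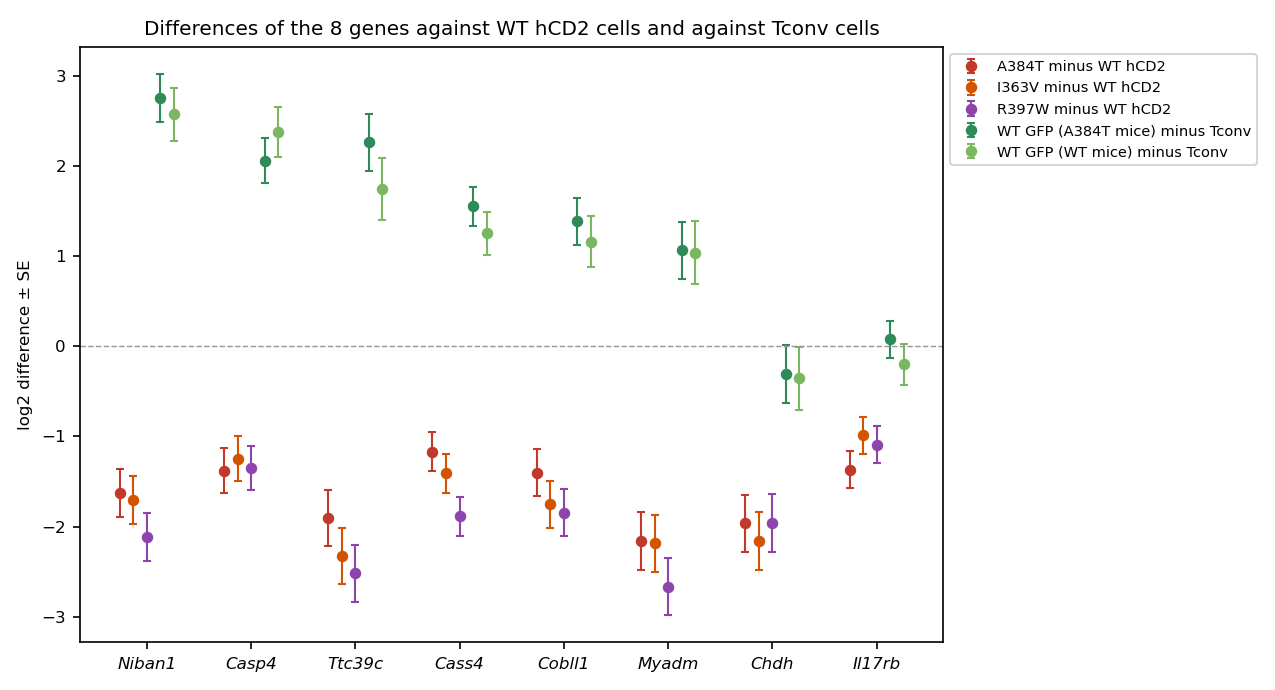
Log2 difference (y axis, ± SE of the fit) of each gene (x axis) for the 3 mutants minus WT hCD2 cells and for WT GFP Treg cells of A384T mice and of WT mice minus Tconv cells. The mutant differences are negative for all 8 genes, and the Treg differences are above 1 for 6 genes and near 0 for Chdh and Il17rb.

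WT GFP Treg cells of A384T mice gave the same calls against the same Tconv arrays. The 5 genes rose by 2.75 ± 0.27 (Niban1), 2.26 ± 0.31 (Ttc39c), 2.06 ± 0.25 (Casp4), 1.55 ± 0.22 (Cass4) and 1.39 ± 0.26 (Cobll1), and 5.17% of all genes were called higher. The least certain of them was Cobll1, with an adjusted p of 0.00319, and its call was lost without Tconv array 1 (adjusted p = 0.0519). Myadm again fell short, at 1.06 ± 0.32 (adjusted p = 0.0579), and was called without Tconv array 2 (adjusted p = 0.00938), with the mean of its probe sets (adjusted p = 0.00693) and among genes with SD above the median (adjusted p = 0.0332).

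WT GFP Treg cells that developed beside A384T cells were not distinguished from those of WT mice. The differences of the 8 genes ran from -0.32 for Casp4 to 0.52 for Ttc39c, and limma called 0 of 18193 genes (0%), with 473 at an unadjusted p under 0.05. All 8 genes had overlapping arrays in this comparison. The standard errors were 0.21 to 0.32.

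The arrays of these groups also varied together. Deviations of the WT GFP array 1, Tconv array 1 and WT hCD2 array 3 from their group means correlated over all genes, with r of 0.71 to 0.77, so arrays of these groups share a source of variation. Chdh is an example, since these arrays held the lower value of each of the groups (-0.96, -0.37 and -0.22). Il17rb was likewise lower in WT GFP array 1 and WT hCD2 array 3 (-0.60 and -0.21), but its Tconv arrays stood at -0.01 and 0.01.

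Other probe sets were available for 4 of the members, 5 probe sets in all, and in each of the 5 the mutant arrays again lay below all wild-type Treg arrays. They measure the same RNA and are no independent sample. The second probe set of Niban1 gave differences from WT hCD2 cells of -1.62, -1.75 and -2.01 in A384T, I363V and R397W cells, close to the first. The second probe sets of the other genes gave smaller ones, such as -0.66, -0.54 and -0.72 for Cobll1 and -1.04, -0.91 and -1.20 for Myadm. The 2 other probe sets of Ttc39c lay between -0.74 and -0.99. For R397W minus A384T cells, the other probe sets gave -0.07 for Cobll1, -0.16 for Myadm and -0.26 and 0.04 for Ttc39c, with overlapping arrays. That of Niban1 gave -0.39, without overlap. Whether these mutants separate thus depends on the probe set. Il17rb, Chdh, Casp4 and Cass4 rest on 1 probe set each.

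Of the genes that lie next to the members, 12 non-members were measured, and Casp1, the inflammatory caspase that lies 1567 bases from Casp4, was the one called in any comparison. Casp1 stood at 0.06, 0.19 and 0.41 in A384T cells, at 0.40, 0.39 and 0.56 in I363V cells and at 0.21, 0.50 and -0.14 in R397W cells. It stood at 1.33 and 1.56 in WT hCD2 cells, at 1.02, 1.39 and 1.62 in WT GFP cells of A384T mice, at 1.29 and 1.67 in WT GFP cells of WT mice and at -0.29 and 0.29 in Tconv cells. No mutant array reached a wild-type Treg array. Casp1 rose by 1.48 ± 0.24 in WT GFP Treg cells of WT mice against Tconv (adjusted p = 0.00166). It fell by 1.22 ± 0.22 in A384T cells (adjusted p = 0.0329) and by 1.25 ± 0.22 in R397W cells (adjusted p = 0.00667) against WT hCD2, where 0.28% and 2.26% of all genes were called in either direction. In I363V cells its difference of -0.99 ± 0.22 was not called (adjusted p = 0.0501), and 0.912% of all genes were. The A384T call was lost without any 1 of the 5 arrays compared (adjusted p = 0.0668 to 0.494), and the R397W call without WT hCD2 array 4 (adjusted p = 0.0957). Against WT GFP cells of A384T mice, Casp1 fell by 1.12 ± 0.20 in A384T cells (adjusted p = 0.0176), where 0.522% of all genes were called. This p comes from the fit of group means, which does not use the pairing of same-numbered arrays of these groups. Casp12, on the other side of Casp4, had differences between -0.13 and 0.02 in all 6 comparisons.

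**Figure D4:**
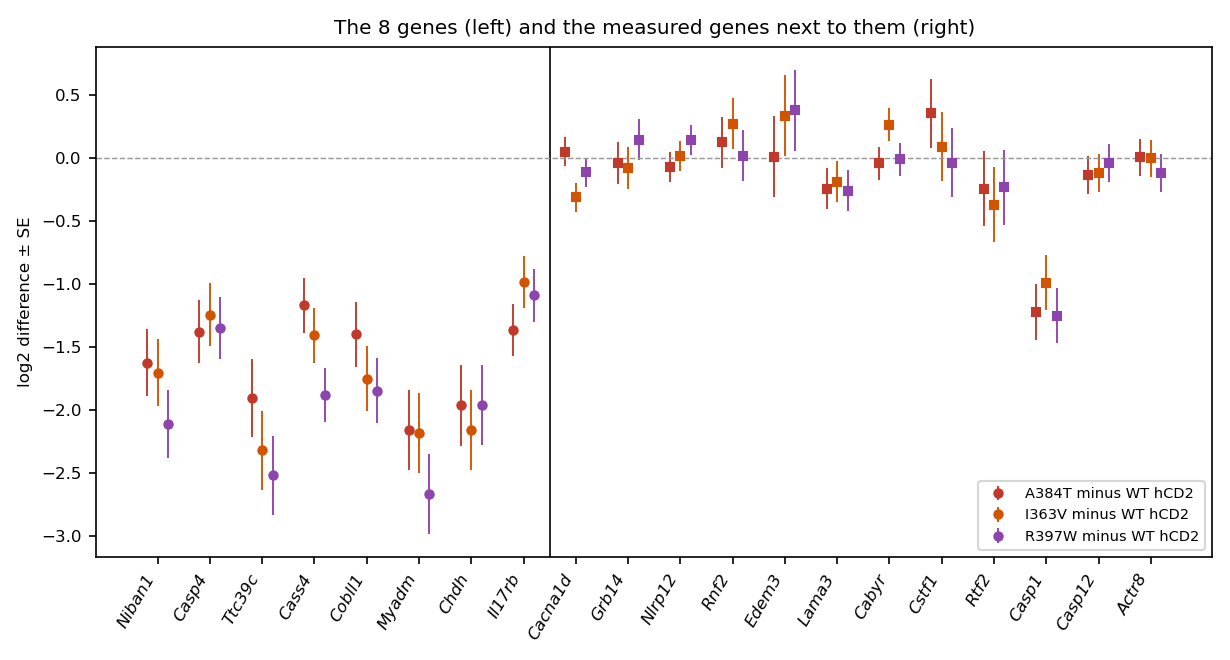
Log2 difference from WT hCD2 cells (y axis, ± SE of the fit) in A384T, I363V and R397W cells for the 8 genes (circles, left of the line) and for the 12 measured genes next to them (squares, right of the line). Casp1 is the neighbour that lies near the 8 genes, with differences of -1.22, -0.99 and -1.25.

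Lists of genes related to each member by family or pathway held 102 measured non-members, and up to 12 of them were called in a comparison. Against WT hCD2 cells 1 rose and 1 fell in A384T cells (1.96% of the lists, where 0.28% of all genes were called in either direction). In I363V cells 1 fell (0.98%, where 0.912% of all genes were called), and in R397W cells 5 fell (4.9%, where 2.26% were). The medians over the lists were 0.02, -0.06 and -0.08 in A384T, I363V and R397W cells. In WT GFP Treg cells of WT mice Aldh7a1, Pcyt1b, Casp1, Gbp3 and Plp2 rose and Il17re fell against Tconv, which is 5.88% of the lists, where 3.93% of all genes were called. In WT GFP Treg cells of A384T mice the same 6 genes were called in the same directions, Chpt1, Ninj1, Src, Cmtm3 and Cmtm7 rose as well and Daam1 fell, which is 11.8% of the lists, where 7.57% of all genes were called.

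Among 12 other genes of IL-17 receptors and IL-25 signalling, none was called in a mutant. Il17ra, the subunit that pairs with the Il17rb product, differed from WT hCD2 cells by 0.18 ± 0.31 in A384T, -0.03 ± 0.31 in I363V and -0.19 ± 0.31 in R397W cells. Il17re, a receptor subunit for IL-17C, fell by 0.55 ± 0.13 in WT GFP Treg cells of WT mice against Tconv (adjusted p = 0.0234), a call that was lost on leaving out any of the 4 arrays. Around Chdh, 19 genes of choline, betaine and one-carbon metabolism were measured. Aldh7a1, which can oxidise the product of Chdh to betaine, rose by 1.17 ± 0.21 in WT GFP Treg cells of WT mice (adjusted p = 0.00425), and lost the call without Tconv array 2 or WT GFP array 2 and with the mean of its probe sets. It was not called in any mutant. Pcyt1b, of phosphatidylcholine synthesis, fell by 0.76 ± 0.16 in R397W cells (adjusted p = 0.0232). Chpt1, of the same route, rose by 0.88 ± 0.16 in A384T cells (adjusted p = 0.0353). Pcyt1b was no longer called without WT hCD2 array 4 (adjusted p = 0.287), without R397W array 1 or with the mean of its probe sets. Chpt1 was no longer called without either WT hCD2 array or without A384T array 2 or 3 (adjusted p = 0.107 to 0.518).

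The list of inflammatory caspases and pyroptosis held most of the calls in the mutants. Of its 15 measured non-members, Casp1, Il18 and Gbp3 fell in R397W cells, Casp1 fell in A384T cells and Il18 fell in I363V cells. Il18, a cytokine matured by caspase-1, fell by 0.98 ± 0.21 in I363V (adjusted p = 0.0423) and by 0.92 ± 0.21 in R397W cells (adjusted p = 0.0346). Gbp3, an interferon-induced GTPase, rose by 2.41 ± 0.28 in WT GFP Treg cells of WT mice against Tconv (adjusted p = 6.89e-05) and fell by 1.38 ± 0.25 in R397W cells (adjusted p = 0.00887), with a difference of 0.16 ± 0.25 in A384T cells (adjusted p = 0.91). The other 12 were not called in a mutant. Il18 lost its calls without WT hCD2 array 4 (adjusted p = 0.589 in I363V and 0.37 in R397W) or without any array of the mutant, and Gbp3 lost its R397W call without WT hCD2 array 3 (adjusted p = 0.167).

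The families of the membrane and cytoskeletal members gave 1 call in the mutants, that of Plp2. Of 10 genes of the MAL, plasmolipin and CMTM families, Plp2 rose by 1.06 ± 0.17 in WT GFP Treg cells of WT mice against Tconv (adjusted p = 0.00129) and fell by 0.80 ± 0.15 in R397W cells (adjusted p = 0.0122), but was not called without WT hCD2 array 3 or 4 (adjusted p = 0.0839 and 0.117). Cmtm3 rose by 1.11 ± 0.26 (adjusted p = 0.0163) and Cmtm7 by 1.25 ± 0.25 (adjusted p = 0.00462) in WT GFP Treg cells of A384T mice against Tconv, and neither was called in those of WT mice (adjusted p = 0.126 and 0.101). Both calls were lost without Tconv array 2 (adjusted p = 0.156 and 0.105), and that of Cmtm3 also without Tconv array 1 or WT GFP array 3 of A384T mice. Of 16 genes of the CAS scaffold family and focal adhesion signalling, the kinase gene Src rose by 2.03 ± 0.32 in WT GFP Treg cells of A384T mice against Tconv (adjusted p = 0.000713). In those of WT mice Src had a difference of 1.27 ± 0.35 that was not called (adjusted p = 0.058), and none of the 16 was called in a mutant. Daam1, a formin gene of the actin nucleation list, fell by 0.68 ± 0.20 in WT GFP Treg cells of A384T mice against Tconv (adjusted p = 0.0477), a call lost on leaving out any of the 5 arrays. None of 13 actin nucleation genes, of 14 genes of the Niban family and the integrated stress response, or of 3 other TTC39 genes was called in a mutant by limma.

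The genes whose values over the 18 arrays were most like those of a member are given as a description, since the distance between mutant and wild-type arrays shapes every such r. Members were left out of this ranking. Ttc39c was closest to Klrg1, a receptor of differentiated T cells, and to Gcnt1, a glycosyltransferase (r of 0.98 each). Klrg1 was also closest to Cobll1 (r of 0.96), and Gcnt1 to Cass4 (r of 0.97). Niban1 was closest to Zdhhc2 (0.97) and Casp4 to Sdcbp2 (0.95), with Casp1 next (0.93). Myadm was closest to S100a4 (0.94), Chdh to Il18rap (0.93) and Il17rb to Myo1f (0.89). Klrg1 had the largest difference of these genes, -4.17, -4.41 and -4.77 in A384T, I363V and R397W cells against WT hCD2. Among the 28 pairs of members r ran from 0.48 to 0.97 with a median of 0.82. With members included, Ttc39c was the gene most like Cobll1 (0.96) and Cass4 (0.97), and Chdh the gene most like Il17rb (0.91).

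Markers of Treg cells and of other cells moved with some groups. The median of 4 Treg markers lay between 5.12 and 5.35 in the A384T arrays, between 4.28 and 4.57 in the I363V arrays, between 4.01 and 4.15 in the R397W arrays and between 4.98 and 5.19 in the WT hCD2 arrays. Ikzf2 was called lower in I363V and R397W cells, and Il2ra in R397W cells. The medians of 9 myeloid markers lay between -0.88 and 0.02 in the A384T arrays, between -0.36 and -0.05 in the I363V arrays, between -1.16 and -0.89 in the R397W arrays and between 0.03 and 0.07 in the WT hCD2 arrays, and Lyz2 was called lower in R397W cells. The medians of 8 CD8 T and NK cell markers lay between -0.58 and -0.18 in A384T, between -0.71 and -0.48 in I363V and between -0.96 and -0.33 in R397W arrays, against -0.23 and 0.08 in the WT hCD2 arrays. In the WT GFP arrays of A384T mice the CD8 T and NK cell medians lay between -0.40 and -0.16. The myeloid medians there lay between -0.63 and 0.04, and the A384T arrays overlapped both ranges. The medians of 7 B cell markers lay between -0.54 and -0.43 in I363V arrays, against -0.12 and -0.09 in the WT hCD2 arrays, and Cd22 was called lower there. None of 5 dendritic cell, 3 erythroid or 6 stromal and endothelial markers was called against WT hCD2 by limma. Their part in the lower values of the 8 genes was not tested.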

How the data were processed

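The authors deposited 1 table of log2 values made by RMA, per the submitters' processing notes, for 45101 probe sets on 18 arrays. RNA was purified with Isogen and RNeasy columns and labelled by the two-cycle method, per the labels' protocols. Software, version and scan batches are not given in the sources used here. The log2 base of the deposited values is assumed from RMA. Every probe set was shifted to a Tconv mean of 0 (their sum is at most 1e-06), so levels are lost and no filter on dim probe sets was possible. The chip annotation gave 34945 probe sets with 1 gene, 932 with several and 9160 with none, besides 64 control probe sets.

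Means of the 7 groups were fitted over all arrays with limma 3.58.1 in R 4.3.3 (11 residual and 3.29 prior degrees of freedom, two-sided moderated tests), and p was adjusted over 18193 genes by the method of Benjamini and Hochberg, with calls under 0.05. Errors are SE of this fit. Precision is limited by how few arrays a group holds. The fit was tested on simulated data with independent noise on each array, which leaves out the variation that the real arrays share. It recovered 11.6% to 17.6% of changes of 0.5 and 68% to 75.6% of changes of 1, depending on the comparison. False calls were 4.8% to 5.9% of the calls. Tables and plots were made with Python 3.11.15, numpy 2.4.6, pandas 2.3.3 and matplotlib 3.10.9. The members and the lists of pathways and markers were chosen with earlier results of these data known. Besides the members, the text names the 1 or 2 genes most like each member (of the 2 with the highest Pearson r), called list genes, genes next to a member, and Foxp3, Il2ra and Ikzf2.

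Alternatives were the mean of all probe sets of a gene, a robust form of the limma test, arrays centred on their medians, genes with SD above the median, only the groups compared, a block for the replicate number and leaving out each array. The block was checked by the deviations of same-numbered arrays from their group means: the 3 pairs of A384T and WT GFP arrays of A384T mice had r of 0.69, 0.65 and 0.58, so these numbers pair the samples. Promoters are RefSeq windows of GRCm38.p6 and were searched for each motif on both strands. For list genes in the mutants, the mean of all probe sets, centred arrays and leaving out each array were added after seeing the data.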

Additional observations from a re-analysis of the deposited data

How the results depend on the processing

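The direction of no called member changed under any alternative run. In WT GFP Treg cells of WT mice against Tconv, 5 of the 8 genes were called, 1 with only the groups compared, 6 with the replicate number as a block and 2 to 5 on leaving out 1 array. Over all genes 482 were called higher, against 149 with only the groups compared, 2236 with the replicate block and 252 to 330 on leaving out 1 array. The genes called lower numbered 233, against 47, 1111 and 119 to 226 in the same order. These 2 groups share only 2 replicate numbers, and same-numbered arrays correlated at 0.71. Myadm was called with the replicate block (adjusted p = 0.00478) and without Tconv array 2 (adjusted p = 0.0216). In WT GFP Treg cells of A384T mice against Tconv the block gave 399 genes higher in place of 941 and 103 lower in place of 436, and leaving out 1 array gave 512 to 904 higher, 199 to 400 lower and 4 to 6 of the 8 genes. The latter groups came from mice of different Foxp3 genotypes. Their same-numbered arrays correlated at -0.08 and -0.10, so the numbers do not pair samples there and nothing is read from that block. The block changed no other call of a member. The fewer arrays in these fits reduce the degrees of freedom, and the cause of the other shifts was not tested.

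With the mean of all probe sets the median differences of the 8 genes from WT hCD2 cells were -1.37 (A384T), -1.38 (I363V) and -1.67 (R397W), and the R397W difference from A384T was -0.27. Leaving out 1 array gave -1.75 to -1.38 for A384T, -1.99 to -1.60 for I363V and -2.17 to -1.71 for R397W against WT hCD2, and -0.49 to -0.31 for R397W against A384T. The median of WT hCD2 minus WT GFP cells, 0.19, ran from -0.14 to 0.51.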
